A study of Mus musculus with 2 samples.

Results

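The 10 genes described here control vitamin D activation and renal calcium handling: Cyp27b1, Cyp24a1, Vdr, Kl, Pth1r, Casr, Trpv5, Trpv6, Calb1 and S100g. They were chosen by name as a functional set, with earlier results of these data known. All 10 were measured, out of 22180 genes that carry a probe set with exactly 1 gene symbol. Each of the 10 had 1 probe set. Kidney RNA came from male mice of 2 genotypes, Iah1-WT and Iah1-KO, the latter a systemic knockout of Iah1, whose product resembles esterases that hydrolyse isoamyl acetate. Mice of both genotypes were caged singly and given standard chow until 6 weeks of age and then a high-fat diet for 12 weeks, and were killed after 4 hours without food, so no group on chow was compared. RNA of 3 mice was pooled for each genotype and run on 1 Affymetrix array. The comparison is therefore between 2 pools, the spread between mice is unknown, the genotypes cannot be tested against each other, and no p-value is given. Neither the strain background nor the deleted part of Iah1 is stated in the sources used here.

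Vitamin D is activated in the kidney by the hydroxylase CYP27B1 and inactivated by the hydroxylase CYP24A1, and the active hormone acts through the nuclear receptor VDR. Parathyroid hormone raises and the bone hormone FGF23, with its co-receptor klotho, lowers renal activation of vitamin D, while the calcium-sensing receptor reads extracellular calcium. In the distal convoluted and connecting tubule, calcium enters cells through the TRPV5 and TRPV6 channels, is carried by calbindins and leaves through a sodium-calcium exchanger and a calcium pump.

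Cyp27b1 was the one gene of the set whose 2 pools stood far apart: in the Iah1-KO pool its signal was 2.06-fold lower. The other 9 genes differed by between -0.20 (Trpv6) and 0.24 (Casr) on the log2 scale. The gene that inactivates vitamin D, the receptor, klotho and the distal calcium-binding proteins all differed by 9.55% or less. Values are log2 RMA values, and every difference is the Iah1-KO value minus the Iah1-WT value. As a description of how far genes scatter on these arrays, each difference is set beside the robust SD of the differences of the 500 genes nearest in mean log2 value, called the local SD. It is a spread over genes and not over mice.

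The labels were checked first on the targeted gene. Iah1 was at 9.09 in Iah1-WT and 3.60 in Iah1-KO RNA, the latter below that array's median over probe sets, 4.03. The kidney label was checked on 12 proximal tubule markers, all of which reached a log2 value of 6 in at least 1 pool, the expression floor used below. Slc34a1, the phosphate carrier of that segment, was at 12.62 and 12.67. Markers of parathyroid and thyroid tissue had 0 of 3 measured genes at the floor, with Pth at 2.33 and 2.19, and adrenal cortex markers had 0 of 6.

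The sequence before the start of Cyp27b1 is shown because this gene carried the largest difference, and that of S100g because this vitamin D target, with little difference between the pools, held the most matches to a receptor half-site. RefSeq windows of 250 bases before the annotated start (build GRCm38.p6) were matched by symbol for 8 of the 10 genes. The Cyp27b1 window is chr10:127047996-127048245 on the plus strand and the S100g window chrX:162964600-162964849 on the minus strand, both written 5′ to 3′. Capitals mark matches to CCAAT or to the half-sites described next, on either strand.
Cyp27b1: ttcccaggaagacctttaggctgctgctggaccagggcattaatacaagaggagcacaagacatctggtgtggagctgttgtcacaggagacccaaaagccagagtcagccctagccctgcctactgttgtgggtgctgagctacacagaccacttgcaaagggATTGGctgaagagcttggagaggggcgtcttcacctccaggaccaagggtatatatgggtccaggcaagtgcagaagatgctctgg
S100g: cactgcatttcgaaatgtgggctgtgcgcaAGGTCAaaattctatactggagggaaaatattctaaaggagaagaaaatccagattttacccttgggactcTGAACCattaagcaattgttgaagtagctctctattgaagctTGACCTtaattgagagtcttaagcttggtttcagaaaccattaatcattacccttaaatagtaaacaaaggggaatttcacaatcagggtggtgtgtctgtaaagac

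Vitamin D receptor half-sites were searched as AGGTCA, its variant GGGTCA, its variant AGTTCA or its variant GGTTCA on both strands, and the paired DR3 element as any 2 of these in the same direction with 3 bases between them. S100g held 3 half-sites, Trpv6 held 2, and Vdr and Kl held 1 each. At least 1 half-site was present in 38.6% of all 32851 windows of that length, so such a match is common. The DR3 element had no match in the windows of the 8 genes, and 0.0396% of all windows held one. The Cyp27b1 window held CCAAT on the minus strand, beginning at position -86 from the start, a match present in 33.9% of all windows. Matches describe these letters and do not show binding. The motif TGACG, the core of cyclic AMP response elements, was in the Trpv6 window and in 1 of 3 Pth1r windows, against 17.8% of all windows, and TATAAA was in the Trpv5 window, against 12.4%.

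Among the vitamin D enzymes and the receptor, Cyp27b1 (probe set 17237887), the hydroxylase that makes active vitamin D mainly in the proximal tubule, was at 5.91 in Iah1-WT and 4.87 in Iah1-KO RNA. The difference of -1.05 is 4.78 times the local SD of 0.22. Both values lay under the expression floor but above the medians of all probe sets, 4.05 and 4.03, and detection calls were not used here. RMA compresses differences of dim probe sets. Of the 500 genes nearest in mean value, 0 were as low, and 1 had a difference of at least the same size, in the opposite direction. Cyp27b1 ranked 16 among 22180 genes from the lowest difference up.

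The share of genes with such a difference was small but not 0. Over all 22180 genes without a floor, 1.42% were at least 1.5-fold lower and 0.996% at least 1.5-fold higher in the Iah1-KO pool, 2.42% in either direction. Of the 10 genes here, 1 was at least 1.5-fold lower and 0 were higher. At 2-fold, 0.0947% of all genes were lower, and Cyp27b1 was among them. Over the 7671 genes at the floor, which Cyp27b1 does not reach, 0.0391% were, so drops of this size were more frequent among dim genes. One array per genotype cannot show whether this difference would recur in other mice.

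**Figure D1:**
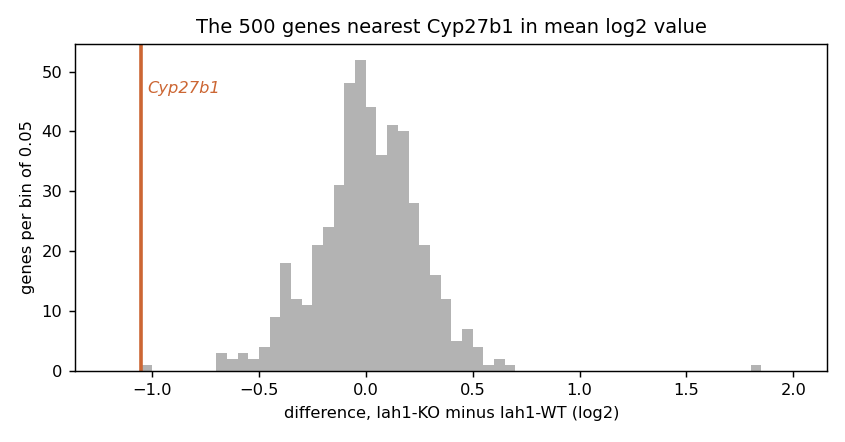
Histogram of the differences (Iah1-KO minus Iah1-WT, log2) of the 500 genes nearest Cyp27b1 in mean log2 value, in bins of 0.05; the line marks Cyp27b1. Cyp27b1, at -1.05, lies just below the lowest of these genes, at -1.03, and 1 gene stands far on the other side, at 1.82.

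Values that could move with Cyp27b1 were read beside it. Proximal tubule markers, for the segment that makes most of the kidney's active vitamin D, had 6 genes above and 6 below 0, a median difference of 0.01, and a summed linear level that was 0.141% higher in the Iah1-KO pool. In bulk tissue, fewer cells of a type and less RNA per cell cannot be told apart. Among the 3 protein-coding genes on either side in the RefSeq gene order, which were looked up after the difference had been seen, none overlapped Cyp27b1. The nearest on one side, Mettl1, a tRNA methyltransferase, was at 6.36 and 6.24. The nearest on the other side, Marchf9, a membrane-bound ubiquitin ligase, was at 5.05 and 4.47, a difference of -0.58 beside a local SD of 0.26. The next genes outward, Eef1akmt3 and Cdk4, differed by -0.22 and 0.08, and Tsfm and Tspan31 by 0.31 and 0.03. Of these 6 genes, 3 were above and 3 below 0, and whether any of them bears on the Cyp27b1 value was not tested.

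Cyp24a1, which degrades active vitamin D and is strongly induced by it, was at 9.61 in Iah1-WT and 9.70 in Iah1-KO RNA. The difference of 0.09, a 6.60% higher signal, was within the local SD of 0.10. Vdr, the receptor gene, was at 10.10 and 10.05, also within 1 local SD. Neither gene therefore stood apart from genes of similar signal in the pool where Cyp27b1 was low.

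Of the hormone receptors and the calcium sensor, Kl and Pth1r were nearly identical in the pools. Kl, which encodes klotho, was at 11.01 and 11.03, a 1.43% higher signal in the Iah1-KO pool. Pth1r, the parathyroid hormone receptor gene, was at 10.06 in both, a 0.250% higher signal. Casr, the calcium-sensing receptor gene, which the thick ascending limb expresses most, was at 7.59 in Iah1-WT and 7.83 in Iah1-KO RNA. Its signal was 18.3% higher, a difference of 0.24 or 1.87 times the local SD of 0.13, and 29 of the 500 genes nearest in mean value differed by as much. Casr was thus second in size within the set in units of local spread, yet inside the range of similar genes.

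The 2 epithelial calcium channels, which are neighbours in the RefSeq gene order, had small differences. Trpv5, the main channel of calcium entry in the distal tubule, was at 6.33 in Iah1-WT and 6.37 in Iah1-KO RNA, a difference of 0.04. Trpv6, the channel best known from the intestine, was at 4.71 and 4.51, under the expression floor in both. Its difference of -0.20 was within the local SD of 0.24.

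The calcium-binding proteins, which carry calcium through the cell, went separate ways by small amounts. Calb1, encoding calbindin-D28k, was at 10.56 in Iah1-WT and 10.42 in Iah1-KO RNA. Its signal was 9.55% lower, a difference of -0.14 or 1.45 times the local SD of 0.10, and 75 of the 500 nearest genes differed by as much. S100g, encoding calbindin-D9k, was at 10.47 and 10.50, a difference of 0.03.

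**Figure D2:**
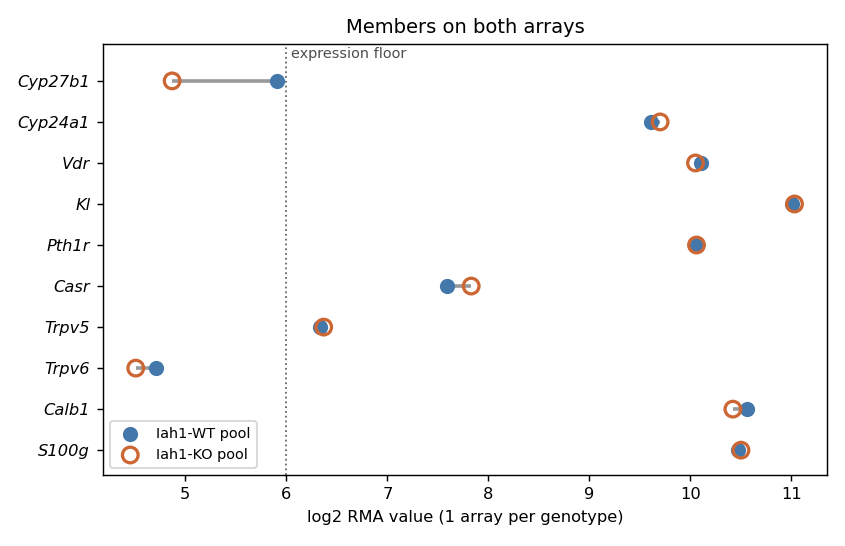
Log2 RMA value of each of the 10 genes in the Iah1-WT pool (filled) and the Iah1-KO pool (open), 1 array each; the dotted line is the expression floor of 6. The points of Cyp27b1 are clearly apart, at 5.91 and 4.87, and those of Pth1r coincide at 10.06; levels of different genes depend on their probes and are not to be ranked.

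Across the set, 6 genes were above and 4 below 0. The median difference was 0.01, against 0.00 over all 22180 genes, and the median size of a difference was 0.07 against 0.13. Most of the 22180 genes lie under the floor, where differences scatter more. For the 8 genes of the set at the floor the median size was 0.05, against 0.09 over the 7671 genes at the floor. Differences of at least 2 local SDs were found in 1 of the 10 genes, Cyp27b1, and in 6.88% of all genes. Differences of at least 1 local SD were found in 3 (Cyp27b1, Casr and Calb1) and in 32.9% of all genes. No sign changed when the differences were corrected for mean expression. Centring on the median of all genes shifts every gene by the same amount, too small to change a sign here.

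**Figure D3:**
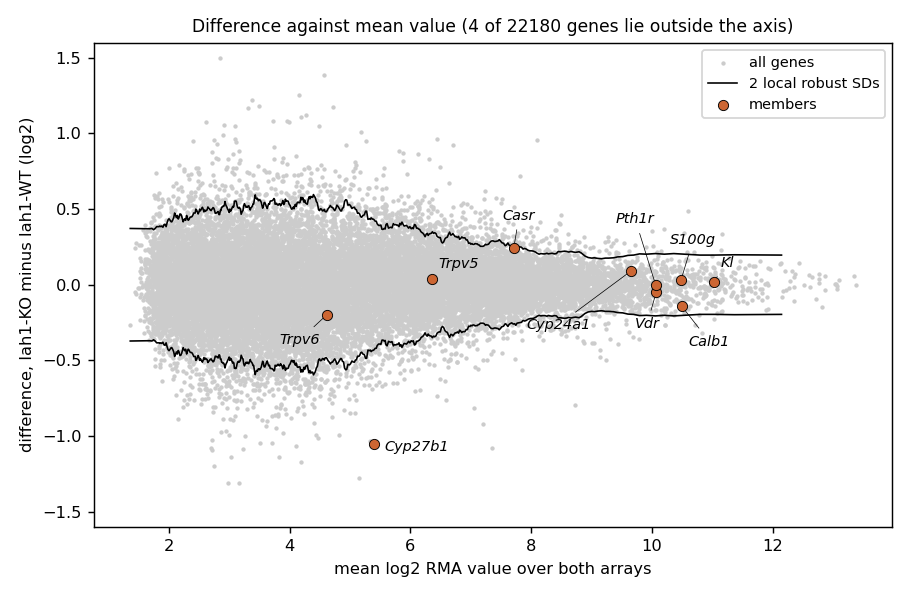
Difference (Iah1-KO minus Iah1-WT, log2) against the mean log2 RMA value over both arrays for all 22180 genes (grey), with the 10 genes of the set named and lines at 2 local SDs on either side; 4 genes lie outside the axis. Cyp27b1 is well below the lower line, and the other 9 are between the lines.

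Further genes of these pathways were taken from 9 lists. Of their 150 measured genes 92 reached the floor in at least 1 pool, and 84 of these are not among the 10. None of the 84 was 1.5-fold higher or lower, where 0.430% of the 7671 genes at the floor were. Their median difference was 0.01, as it was over all genes at the floor, and they ranged from -0.35 to 0.48. Counts and medians of the lists that follow leave out the 10 genes, and over all genes at the floor 52.4% were above 0. A gene that reached the floor in only 1 pool is higher in that pool, so the floor set its sign.

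Genes of vitamin D metabolism and signalling had 4 members above and 9 below 0 out of 13 at the floor, with a median of -0.04. Amn, part of the receptor complex that takes up filtered vitamin D-binding protein, differed by -0.13. The coactivator Med1 differed by 0.12, the disulfide isomerase Pdia3 by -0.09 and Rxra, the partner of VDR, by 0.08. Genes that active vitamin D induces in cell studies had 1 above and 6 below 0 out of 7, with a median of -0.09. Txnip, the thioredoxin inhibitor, and Nfkbia, the NF-kB inhibitor, both differed by -0.16. Thbd, encoding thrombomodulin, differed by -0.14 and the Wnt co-receptor Lrp5 by 0.12. Thbd and Cdkn1a, both at 6.01 in Iah1-WT RNA, reached the floor only in that pool, so both could only count below 0. The vitamin D targets among the 10 genes were divided, with Cyp24a1, Kl, Trpv5 and S100g above 0 and Vdr, Calb1 and Trpv6 below. None of these differences reached 1.5-fold.

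Klotho and FGF23 signalling had 5 genes above and 2 below 0 out of 7, with a median of 0.05. Galnt3, the glycosyltransferase that protects FGF23 from cleavage, was at 9.19 in Iah1-WT and 9.45 in Iah1-KO RNA, a difference of 0.25 beside a local SD of 0.09. Of the FGF receptors that pair with klotho, Fgfr1 differed by -0.18, Fgfr3 by 0.09 and Fgfr4 by 0.06. Parathyroid hormone and calcitonin signalling had 3 above and 3 below 0 and a median of -0.03. There, Gnaq, a G protein subunit, differed by 0.21, Slc9a3r1, the scaffold of the phosphate carriers, and the kinase subunit Prkaca both by -0.15, and Adcy6, an adenylyl cyclase, by 0.09.

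Transcellular calcium transport had 6 genes above and 4 below 0 out of 10, with a median of 0.05. Rab11a, which recycles channels to the membrane, differed by -0.27, the calcium pump Atp2b4 by 0.16, Klk1, the kallikrein that keeps TRPV5 at the membrane, by -0.14 and the calcium pump Atp2b1 by -0.12. Beside these genes, connecting tubule markers other than the 10 had 4 of 5 measured genes at the floor, 3 above and 1 below 0. Tmem213 was at 0.33 and the sodium channel subunit Scnn1g at 0.16. Scnn1g and Scnn1b are also in the principal cell list and Slc8a1 in the calcium transport list, so those counts overlap. The summed linear level of all 5 measured was 7.29% higher in the Iah1-KO pool, with the largest part from Tmem213. Over all 10 connecting tubule markers, the set's genes included, the summed level differed by -0.44%. The part of these markers in the calcium transport values was not tested. Distal convoluted tubule markers had 6 above and 1 below 0 out of 7 at the floor, with Cnnm2 at 0.48 and Klhl3 at 0.16. Under the floor, Pvalb went the other way, at -0.33 beside a local SD of 0.22. The summed level of all 8 measured markers of this segment was 3.92% higher. Slc12a3, Trpm6 and Cnnm2 are also in the distal magnesium transport list, so those counts overlap.

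Calcium sensing and calcium transport in the thick ascending limb had 1 gene above and 9 below 0 out of 10 at the floor, with a median of -0.12. Of the 7 measured genes under the floor, more were above 0 than below. With the set included, the list median was -0.11 at the floor and -0.06 with no floor. Bsnd, the subunit of the chloride channels of that segment, was at 7.02 in Iah1-WT and 6.67 in Iah1-KO RNA, a difference of -0.35 beside a local SD of 0.16. Cldn10, a claudin that sets its ion selectivity, differed by -0.24 and Arrb1, a beta-arrestin, by -0.22. The one gene above 0 was Cldn3, at 5.94 and 6.28, which reached the floor only in the Iah1-KO pool. The summed level of the 8 measured markers of the thick ascending limb differed by -5.47%. At the floor, 1 marker was above and 5 were below 0 out of 6, with a median of -0.11. Of the 6, Cldn10 and Kcnj1, at -0.16, were furthest from 0. Of these 6 markers, 4 (Slc12a1, Umod, Cldn10 and Kcnj1) also belong to the pathway list, so the counts overlap. Casr, at 0.24, therefore differed in the opposite direction from most genes of both lists at the floor. Whether the share of these cells bears on the Casr value was not tested.

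Phosphate transport, which parathyroid hormone and FGF23 also govern, had 6 genes above and 3 below 0 out of 9, with a median of 0.05. The inositol hexakisphosphate kinases Ip6k2 and Ip6k1 differed by 0.24 and 0.08, Slc9a3r1 by -0.15 and Gabarap by 0.11. Distal magnesium transport had 10 above and 3 below 0 out of 13, with a median of 0.03. Cnnm2, a regulator of magnesium transport, was at 6.83 in Iah1-WT and 7.31 in Iah1-KO RNA. The basolateral potassium channel subunits of the distal tubule went opposite ways, Kcnj16 at 10.36 and 10.70 and Kcnj10 at 7.29 and 7.01. Egfr, the receptor of the epidermal growth factor that stimulates magnesium uptake, differed by 0.15.

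**Figure D4:**
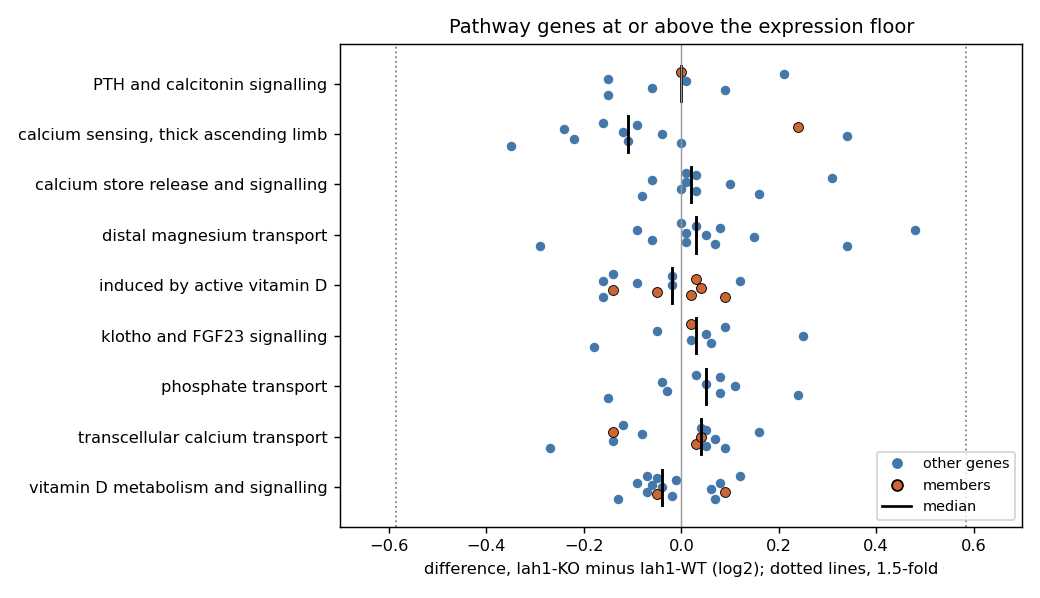
Difference (Iah1-KO minus Iah1-WT, log2) of each gene at or above the expression floor in the 9 pathway lists, with the genes of the set in orange, the other genes in blue and the list median, which here includes the set, as a bar; dotted lines mark 1.5-fold. All points lie between the dotted lines, and most of the thick ascending limb list lies left of 0 while Casr, at 0.24, lies right.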

How the data were processed

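RNA pools of 3 male mice per genotype were measured on 1 array each. Per the submitters' processing notes, the authors used RMA and Affymetrix Expression Console 1.3.0, and deposited 1 log2 value for each probe set. RMA subtracts background, brings both arrays to one distribution and summarises probes, so a change shared by most transcripts would not be visible. No source used here gives the build behind the array annotation.

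Of 41345 probe sets, 23521 had exactly 1 symbol in GEO's platform annotation, covering 22180 genes; the brightest was used per gene. Differences were taken with no further normalization (Python 3.11.15, numpy 2.4.6, pandas 2.3.3, statsmodels 0.14.6). The local SD is the median absolute deviation times 1.4826 over the 500 genes nearest in mean. It was also tried on simulated differences, but after a correction for mean expression that the local SDs given here did not have. Counts and medians of lists used genes at a log2 value of at least 6 in either pool, and summed levels used all measured genes. Of 289 entries in 9 pathway and 14 marker lists, 260 matched, and the others were not analysed here. Named were the set, Iah1, and up to 4 genes per pathway list (2 per marker list) with the largest difference. Slc34a1, Pth, the Cyp27b1 neighbours, Adgre1, Cd68, Slc12a1, Umod, Pvalb and Cdkn1a fall outside this rule. So do Slc8a1, Scnn1b, Slc12a3, Trpm6, Lep, Cidec, Adipoq, Plin1 and Retn. The genes and lists were chosen with earlier results of these data known. Alternatives were the mean over probe sets, centring, loess (span 0.3), other floors and other thresholds. The number of arrays limits the precision.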

Additional observations from a re-analysis of the deposited data

How the results depend on the processing

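The 30 alternative differences of the 10 genes moved by at most 0.02, and none changed sign. They used the mean over all probe sets, centring on the median, and loess on mean expression. Each of the 10 genes had 1 probe set, so the mean over probe sets could not differ from the main value. Centring subtracted the same value, -0.002, from every gene, too little to change any of these signs. Only loess could move the genes separately. The count of genes past 1.5-fold, 1, became 0 with the floor of log2 6, because Cyp27b1 lies under it; it stayed 1 at 2-fold and at 2 local SDs. The median of the transcellular calcium transport list with the set included, 0.04, became -0.08 with no floor, which brings in 6 dimmer genes. Of 95 alternative values in all, the other 93 moved by less than the local spread or, for counts, not at all. These include the 30 of the 10 genes. No paired analysis was possible because each genotype had 1 array. Dim probe sets limit what can be read from Cyp27b1 and Trpv6, where the local SDs were 0.22 and 0.24 against 0.10 for Kl.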

Other observations

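Calcium release from stores and its sensors, a list outside the set, had 8 genes above and 2 below 0 out of 10 at the floor. Their median was 0.02 and their range was from -0.08 to 0.31. Of the 11 measured genes under the floor, most were below 0. With no floor the list median was 0.00. Orai3, a store-operated calcium channel, was at 5.83 in Iah1-WT and 6.14 in Iah1-KO RNA, and so reached the floor only in the latter. Stim2, a sensor of stored calcium, differed by 0.16, the store pump Atp2a2 by 0.10 and S100a11 by -0.08. No gene of the list reached 1.5-fold.

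Among cell types that surround the calcium-transporting segments, principal cell markers had 5 genes above and 4 below 0 out of 9, with Aqp4 at 0.57 and Aqp2 at 0.49. Intercalated cell markers had 3 above and 7 below 0 out of 10, with Atp6v1g3 at -0.81 and Kit at 0.28. Macrophage markers had 4 of 7 measured genes at the floor, 3 above and 1 below 0, with Lyz2 at 0.63 and Cx3cr1 at 0.41. Cx3cr1 reached the floor only in the Iah1-KO pool, so it could only count above 0. Under the floor, Adgre1 was at -0.73 and Cd68 at -0.23, both named after their values were seen, so the list did not go one way. Endothelial markers had 7 above and 1 below 0 out of 8, with Cdh5 at 0.24 and Ehd3 at 0.21. Fibroblast and smooth muscle markers had 3 above and 5 below 0, with Tagln at -0.29 and Myh11 at 0.17. Tagln reached the floor only in the Iah1-WT pool, so it could only count below 0. Podocyte markers had 2 at the floor, Podxl at 0.10 and Wt1 at 0.02. Adipocyte and red blood cell markers had 1 each at the floor, Fabp4 at -0.07 and Slc25a37 at -0.08. Under the floor, the adipocyte markers Lep at -0.65 and Cidec at -0.64 were furthest from 0, beside local SDs of 0.27 and 0.24. Adipoq was at -0.12, while Plin1 at 0.10 and Retn at 0.20 were above 0.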
